A study of Mus musculus with 2 samples.

Results

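The alpha cells of mouse pancreatic islets were described here by single-cell RNA sequencing, in 1 library from virgin mice and 1 library from multiparous mice. All mice were C57BL/6J females aged 9 weeks at the start. The multiparous mice (multipara) had gone through 3 pregnancies in a row and were studied 3 weeks after the last delivery, and the virgin mice were of the same age. Neither group carried a transgene or received a drug as far as the labels say, and these do not give the number of mice in a library. An alpha cell was a barcode that passed the cell filter of the study and in which the glucagon transcript Gcg made up at least 10% of the unique molecular identifiers (UMIs, each standing for 1 captured RNA molecule). Ins1 plus Ins2, Sst and Ppy each had to be under 5%. This gave 1664 alpha cells among 7765 kept cells, of which 1030 were virgin and 634 multipara. Because there was 1 library per group, no test between groups was possible, cells were not used as replicates, and every interval below covers counting error only.

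Alpha cells are the glucagon-secreting cells of the islet. Glucagon is cut from proglucagon by the convertase PC2 (Pcsk2) and released at low glucose and in response to amino acids, and it raises hepatic glucose output and amino acid breakdown. The homeodomain factors Irx1 and Irx2 mark the cell, and somatostatin from delta cells and insulin from beta cells restrain it. In pregnancy the islet enlarges under placental lactogen and prolactin, which act through the prolactin receptor (Prlr) of beta cells.

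The sequence before the start of Gcg is shown because this 1 gene defines the cells and because several homeodomain proteins of islet cells recognise a TAAT core. Gcg (ENSMUSG00000000394) lies at chr2:62474530-62483650 on the minus strand in GRCm38 (GENCODE M21). The 250 bases before its RefSeq start, chr2:62483654-62483903 on the minus strand of GRCm38.p6, read 5′ to 3′ as follows, with TAAT on either strand in capitals.
Gcg: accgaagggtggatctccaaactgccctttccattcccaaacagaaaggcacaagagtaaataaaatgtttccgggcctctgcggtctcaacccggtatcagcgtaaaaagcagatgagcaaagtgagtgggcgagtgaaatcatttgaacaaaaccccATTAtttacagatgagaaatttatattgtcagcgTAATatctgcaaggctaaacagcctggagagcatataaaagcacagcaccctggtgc
TAAT occurred 2 times in this window. At least 1 match was found in 54.9% of 32851 promoter windows of the same length and at least 2 in 30.8%, so the matches describe the sequence and mark no binding site.

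Among virgin alpha cells the median share of UMIs from Gcg was 36.7%, and 10% of the cells lay under 24.0% and 10% over 44.0%. Among multipara alpha cells the median was 38.9%, with the same limits at 28.2% and 46.6%. These shares follow from the rule and are given as a description. Few cells lay near the limit. With the other hormones under 5%, 9 virgin and 3 multipara cells had Gcg between 10 and 12%, and 8 virgin and 0 multipara cells between 8 and 10%. The lowest share inside was 10.1% and 10.9%, and the highest outside was 9.99% and 6.62%. A further 121 virgin and 98 multipara cells had 10% Gcg or more together with 5% or more of another hormone and were left out. Most of these carried Ppy (61 and 55 cells), fewer carried insulin (38 and 26) or Sst (27 and 20).

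**Figure D1:**
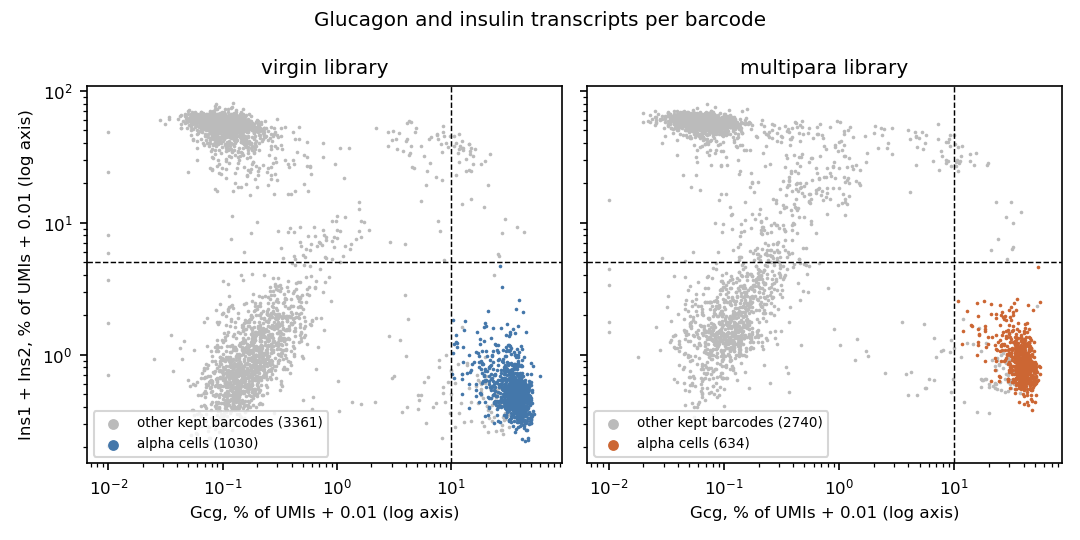
Each point is a kept barcode, with the share of its UMIs from Gcg on the x axis and from Ins1 plus Ins2 on the y axis, both with 0.01 added and on log axes, for the virgin library (left) and the multipara library (right). Dashed lines mark 10% Gcg and 5% insulin, and the coloured alpha cells (1030 and 634) form 1 cloud apart from the insulin-rich and the hormone-low barcodes.

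The label was checked against markers that the rule did not use. Levels below are in CPM, the UMIs of a gene per 1000000 UMIs outside Gcg, Ins1, Ins2, Sst and Ppy, summed over the cells of a library. Ttr, the transthyretin carrier protein, stood at 63152 CPM in virgin and 64902 CPM in multipara alpha cells, against 1897 and 1264 CPM in beta cells. Irx1 was at 157 and 149 CPM in alpha cells and at 1.11 and 0.615 CPM in beta cells. Irx2 was at 167 and 158 CPM in alpha cells and at 4.21 and 2.51 CPM in beta cells. In PP cells, the pancreatic polypeptide cells, Irx1 was at 2.82 and 7.12 CPM. Of the 10 alpha cell markers listed, 8 were at least 2-fold higher in alpha than in both beta and delta cells in both libraries. The exceptions were Gcg, which was left out as a gate gene, and Gc, the vitamin D binding protein, which reached 227 and 195 CPM in delta cells against 259 and 250 CPM in alpha cells.

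Across all genes with at least 100 UMIs in alpha cells, 223 of 9506 (2.35%) were at least 2-fold higher in alpha than in beta and delta cells in both libraries. By the size of this fold, the first 15 genes at 50 CPM or more included the transcription factors Irx1 and Irx2. Others were Higd1a, a mitochondrial protein induced by hypoxia (401 and 491 CPM, against 3.36 and 1.69 CPM in beta cells), and Pdk4, a kinase that restrains pyruvate dehydrogenase (112 and 78.3 CPM, against 0.930 and 0.563 CPM). Edn3, which encodes endothelin 3, was at 119 and 102 CPM. The haemoglobin gene Hbb-bs entered these 15 through single cells, since 1 virgin cell held 98.9% and 1 multipara cell 49.9% of its UMIs.

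**Figure D2:**
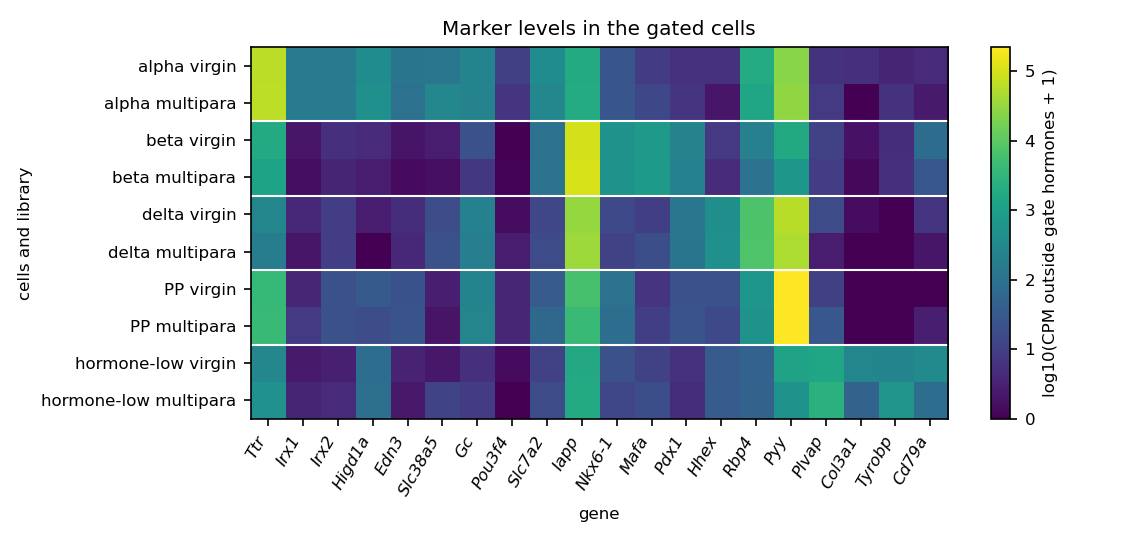
Level of 20 marker genes (x axis) in alpha, beta, delta, PP and hormone-low cells of each library (y axis), as the log10 of CPM outside the gate hormones plus 1 (colour scale). Ttr, Irx1, Irx2, Higd1a and Edn3 are higher in both alpha rows than in the beta and delta rows, Iapp, Rbp4 and Pyy are present in the alpha rows, and the markers of other cell types at the right are low there.

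The virgin alpha cells held 16636267 UMIs and the multipara alpha cells 10974899, with medians of 16418.5 and 17433 UMIs and 3166.5 and 3129.5 genes per cell and 4.31% and 4.03% mitochondrial UMIs. The whole libraries held 5463 and 5075 barcodes, of which 974 and 1550 had 10% or more mitochondrial UMIs. The libraries shared 7 barcode sequences, and 0 of them were alpha cells in both. Some beta cell transcripts in alpha cells differed between the libraries, and how far they are free RNA in the droplets was not tested. Ins2 in alpha cells amounted to 0.643% of its beta cell level in the virgin library and 1.07% in the multipara library. The same shares for the beta cell factor Mafa were 1.04% and 1.66%. Shares were also higher in the multipara library for Ins1 (0.567% and 0.925%), Ucn3 (0.799% and 1.28%) and Slc2a2 (0.942% and 1.34%). The same held for G6pc2 (1.71% and 2.09%), Pdx1 (1.94% and 2.53%) and Nkx6-1 (4.82% and 5.05%). Several of these rest on few UMIs, as Pdx1 with 49 and 36. Of the 9 beta cell markers, Iapp alone stayed level (1.85% and 1.85%). Nupr1, which is not on that list, was at 1.52% and 1.25%. Doublets were not removed. The caller Scrublet marked 10 virgin and 4 multipara alpha cells, and their removal is among the alternatives in the closing section.

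Alpha cells made up a smaller share of the multipara library. They were 23.5% of kept virgin cells (95% interval 22.2 to 24.7) and 18.8% of kept multipara cells (17.5 to 20.2). Among cells with 1 dominant hormone, the shares were 32.5% (30.9 to 34.2) of 3169 virgin cells and 24.7% (23.03 to 26.4) of 2568 multipara cells. Beta cells made up 57.4% and 63.2% of the same cells, delta cells 7.42% and 8.76%, and PP cells 2.68% and 3.35%. The intervals of the alpha shares did not overlap, but 1 library per group gives no measure of the spread between mice, and a share depends on how well each cell type survived dissociation and filtering, which was not tested.

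Most genes of the alpha cells were at levels within 1.5-fold of each other in the virgin and multipara libraries. Of 9506 genes, 261 (2.75%) were not, and of these 98 (1.03%) were more than 1.5-fold higher and 163 (1.71%) more than 1.5-fold lower in the multipara library, a log2 ratio of 0.58 in either direction. The median log2 ratio of multipara over virgin over all these genes was −0.03. In beta cells 192 of 11013 genes (1.74%) were higher and 316 (2.87%) lower by the same rule, and in delta cells 73 of 5359 (1.36%) were higher and 87 (1.62%) lower. The number of genes past 1.5-fold depends on depth, and these counts of different cell types are given side by side only.

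Among genes with a mean of 50 CPM or more, Dapl1 and Slc38a5 had the highest ratios after the haemoglobin genes. The glutamine and neutral amino acid transporter Slc38a5 (chrX:8271133-8280179, plus strand, GRCm38) had 1257 UMIs in virgin and 1900 UMIs in multipara alpha cells, or 122 and 292 CPM. Its log2 ratio was 1.26 (95% interval 1.15 to 1.36). The same gene was at 1.64 and 0.666 CPM in beta cells, at 17.6 and 19.9 CPM in delta cells and at 1.88 and 0.890 CPM in PP cells, so that of the 4 endocrine types alpha cells had the highest level of this gene. Whether the alpha ratio differs from that of the other types was not tested.

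Dapl1, which encodes a death-associated protein-like protein (chr2:59484653-59505020, plus strand), was at 114 CPM in virgin and 285 CPM in multipara alpha cells, a log2 ratio of 1.32 (1.21 to 1.43). In beta cells it was lower in the multipara library, at 62.6 and 42.4 CPM. Spp1, which encodes the secreted phosphoprotein osteopontin, was at 57.3 and 128 CPM (log2 ratio 1.16, 1.01 to 1.31). It was at 597 and 799 CPM in PP cells, at 87.9 and 106 CPM in delta cells and at 3.498 and 7.73 CPM in beta cells, higher in the multipara library in each. Upk3a, a uroplakin membrane protein, was at 84.2 and 170 CPM (log2 ratio 1.01, 0.88 to 1.14) and was under 6 CPM in beta and delta cells of both libraries. Cdkn1a, which encodes the cyclin-dependent kinase inhibitor p21, was at 87.3 and 163 CPM (log2 ratio 0.90, 0.77 to 1.03). Its level in beta cells was 72.9 and 81.5 CPM. Neat1, a nuclear long noncoding RNA, was at 71.2 and 118 CPM in alpha cells and at 351 and 528 CPM in beta cells. For each of these 6 genes no alpha cell held more than 6.53% of the UMIs of a library.

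The highest ratios at a mean of 50 CPM or more belonged to 4 haemoglobin genes. Hbb-bt had a log2 ratio of 3.33, Hba-a1 of 2.20, Hba-a2 of 1.92 and Hbb-bs of 1.84. Between 96.8% and 99.7% of their virgin UMIs and between 49.9% and 57.8% of their multipara UMIs came from 1 cell. In hormone-low barcodes of the same libraries Hbb-bs was at 515 and 27764 CPM.

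**Figure D3:**
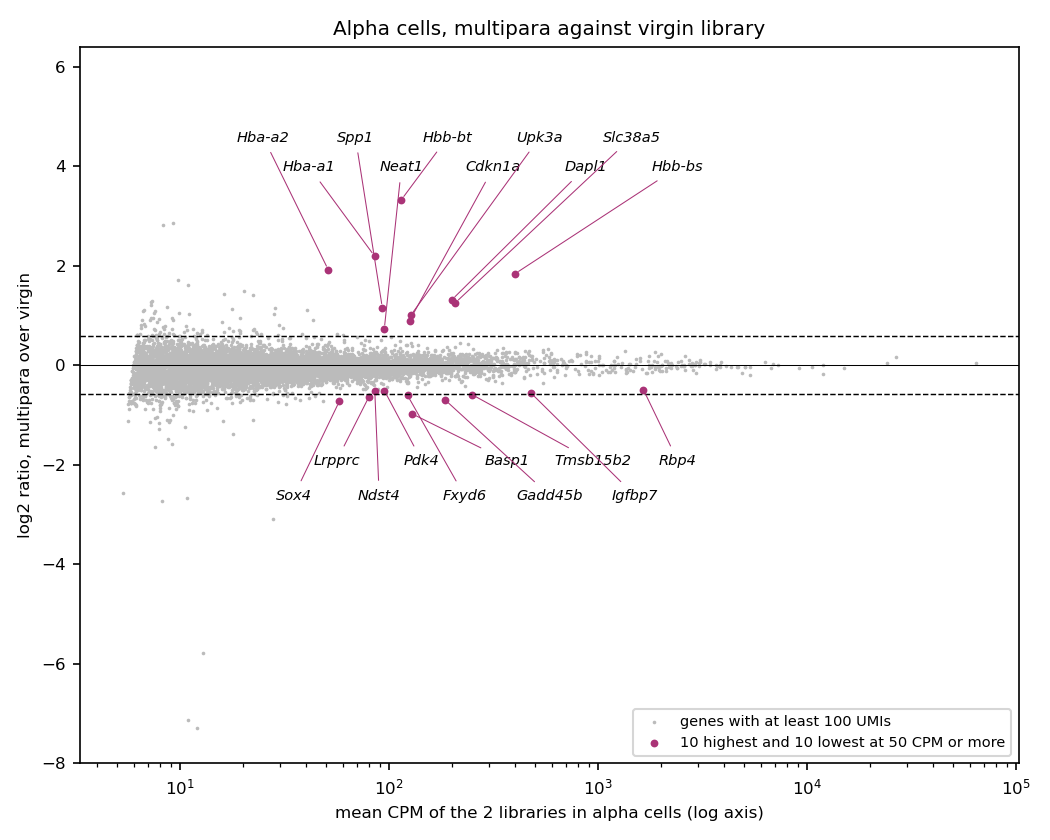
Log2 ratio of multipara over virgin (y axis) against the mean CPM of the 2 libraries (x axis, log scale) for alpha cells. Each grey point is a gene with at least 100 UMIs, coloured points are the 10 highest and 10 lowest ratios at a mean of 50 CPM or more, dashed lines mark 1.5-fold, and most of the 9506 genes lie between the dashed lines.

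For Slc38a5, Dapl1, Spp1, Upk3a and Cdkn1a, a larger share of multipara than of virgin alpha cells held a UMI at equal depth. These genes were chosen for their high ratios in the same libraries, so this direction largely follows from the choice. Each cell was thinned to 7500 UMIs, which left 930 virgin and 583 multipara alpha cells and set 100 and 51 shallower cells aside. A UMI of Slc38a5 was then found in 28.7% (25.8 to 31.7) of virgin and 43.1% (39.0 to 47.2) of multipara alpha cells, and in 0.491% and 0.293% of beta cells. Before thinning the shares in alpha cells were 41.6% and 57.4%. Dapl1 was found in 24.4% (21.7 to 27.3) and 48.5% (44.4 to 52.7), Spp1 in 15.9% and 28.1%, Upk3a in 16.0% and 24.2% and Cdkn1a in 19.6% and 28.3%. In beta cells the shares were 0.920% and 1.54% for Spp1 and 0.736% and 0.880% for Upk3a.

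Cells with 0 of these 5 transcripts made up 32.8% (29.8 to 35.9) of thinned virgin and 13.0% (10.4 to 16.0) of thinned multipara alpha cells. Cells with 3 or more were 60, 11 and 1 virgin cells with 3, 4 and 5 transcripts, and 110, 28 and 3 multipara cells. Dapl1 was found more often in cells with Slc38a5 than in cells without it, in both libraries. Among virgin cells with Slc38a5, 34.1% also had Dapl1, against 20.5% of those without. Among multipara cells the shares were 55.0% and 43.7%. For Cdkn1a the shares with and without Slc38a5 were 18.7% and 19.9% in the virgin library and 26.3% and 29.8% in the multipara library. A share at this depth depends on the level in a cell as well as on the number of cells. Because the 5 genes were chosen for a higher multipara level, the higher multipara counts of cells largely follow from that choice.

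After Hbb-bs, of which 1 cell held much of the UMIs in each library, Pyy had the highest ratio of variance to mean among alpha cells. This ratio tends to be larger for abundant genes. Pyy is the gene for peptide YY, which lies beside Ppy in the genome and which the rule did not use. The median share of UMIs from Pyy was 0.596% in virgin alpha cells, with 10% of the cells under 0.0603% and 10% over 3.65%. In multipara alpha cells the median was 0.872% and these limits were 0.0809% and 4.13%. The median of Pyy was 10.1% and 11.0% in PP cells and 0.00690% and 0.00527% in beta cells. Pyy was at 1% or more in 385 virgin cells (37.4%, 34.4 to 40.4) and 295 multipara cells (46.5%, 42.6 to 50.5). The limit of 1% was chosen after the values were seen and cuts a continuous range, with 109 virgin and 76 multipara cells between 0.8% and 1.2%. Ppy, which the rule limits, moved with it, with a median of 0.263% and 0.359% of UMIs in the cells above the limit and 0.0378% and 0.0530% below it. The cells above were also deeper, with medians of 17846 and 18167 UMIs against 15614 and 16446.

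Few other genes were apart between the Pyy-rich and the remaining alpha cells. Outside Pyy and the gate hormones, 1 of 9505 genes (0.0105%) was at least 2-fold higher in both libraries and 7 (0.0736%) were at least 2-fold lower. The higher gene was Tspan8, a tetraspanin, at 79.2 CPM above and 25.8 CPM below the limit in virgin cells and at 43.0 and 16.3 CPM in multipara cells. Among the 7 lower genes, 3 were haemoglobin genes held largely by 1 cell in each library. Irx1, Irx2 and Ttr were within 0.24 of 0 on the log2 scale between the 2 kinds of alpha cells in each library.

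These 5 genes of high ratio were distributed differently over this range, as the plot of shares and levels shows. Slc38a5 was at 117 CPM in virgin and 379 CPM in multipara cells with less than 1% Pyy (log2 ratio 1.69, 1.55 to 1.83). In cells with 1% or more it was at 137 and 217 CPM (log2 ratio 0.67, 0.51 to 0.84). Spp1 showed the reverse order. It was at 44.3 and 73.8 CPM in cells with less Pyy (log2 ratio 0.74, 0.48 to 0.99) and at 80.0 and 193 CPM in cells with more (log2 ratio 1.27, 1.08 to 1.47). Dapl1 (log2 ratios 1.35 and 1.25), Upk3a (0.94 and 1.10) and Cdkn1a (0.99 and 0.78) had more similar ratios below and above the limit. All 5 genes were higher in the multipara library within both kinds of cells, and the difference between the kinds was not tested. As they were chosen for a high ratio over all alpha cells, this shared direction is no independent evidence.

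**Figure D4:**
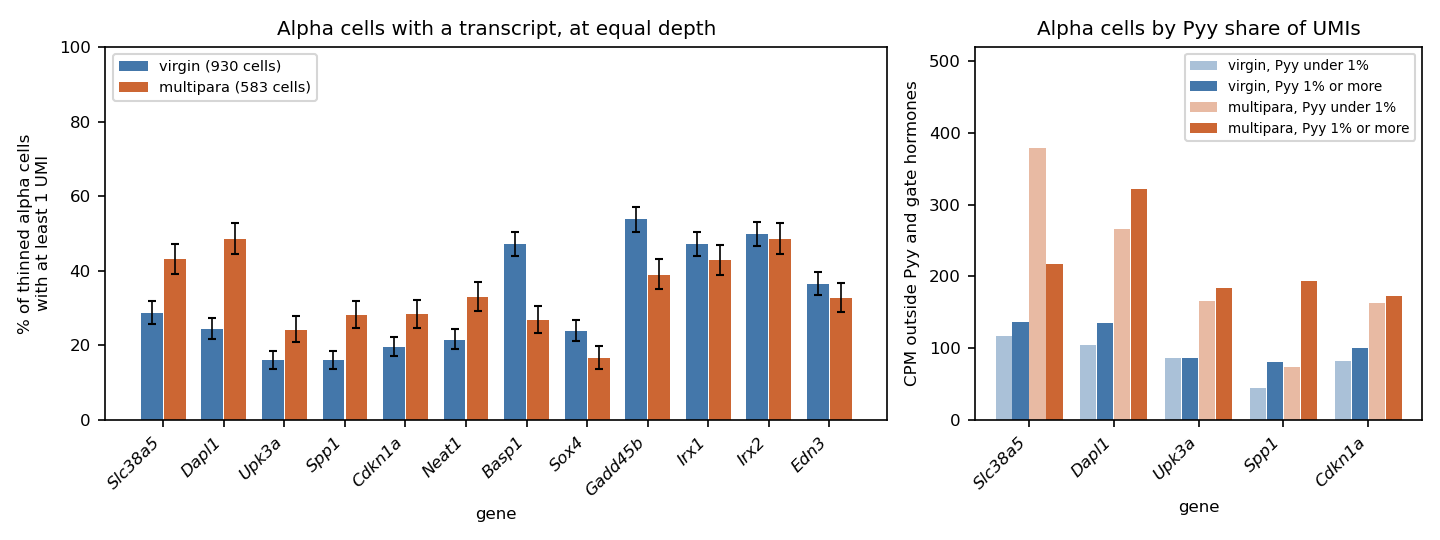
Left, percent of alpha cells thinned to 7500 UMIs (y axis) with at least 1 UMI of each of 12 genes (x axis) in the virgin (930 cells) and multipara (583 cells) libraries, with exact 95% binomial intervals. Right, CPM outside Pyy and the gate hormones (y axis) of 5 genes in alpha cells with under 1% or with 1% or more of their UMIs from Pyy, by library. Slc38a5 is highest in multipara cells with little Pyy (379 CPM) and Spp1 in multipara cells with more Pyy (193 CPM).

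Basp1, a membrane-associated protein of growing nerve endings (chr15:25363277-25413764, minus strand), had the lowest ratio among genes at 50 CPM or more. It was at 169 CPM in virgin and 86.6 CPM in multipara alpha cells (log2 ratio −0.97, −1.11 to −0.83), and 47.2% and 26.8% of thinned cells had a UMI. In delta cells, where it was at 247 and 250 CPM, the log2 ratio was 0.02. The transcription factor Sox4, which acts in endocrine development, was at 71.9 and 43.5 CPM (log2 ratio −0.72). Gadd45b, a stress-inducible gene, was at 229 and 141 CPM (log2 ratio −0.69), and 53.8% and 38.9% of thinned cells had a UMI. In beta cells the log2 ratio of Gadd45b was −0.66 and in delta cells 0.29.

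The other genes of low ratio were Lrpprc, which stabilises mitochondrial messenger RNA (log2 ratio −0.63), the sodium pump regulator Fxyd6 (−0.60), Tmsb15b2 (−0.59), Igfbp7 (−0.56), Ndst4, an enzyme of heparan sulfate synthesis (−0.51), Pdk4 (−0.51) and the retinol carrier Rbp4 (−0.49). Of these, Lrpprc, Fxyd6 and Tmsb15b2 were past 1.5-fold. Rbp4, a marker of delta cells, was at 1917 and 1369 CPM in alpha cells and at 7148 and 7629 CPM in delta cells.

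**Figure D5:**
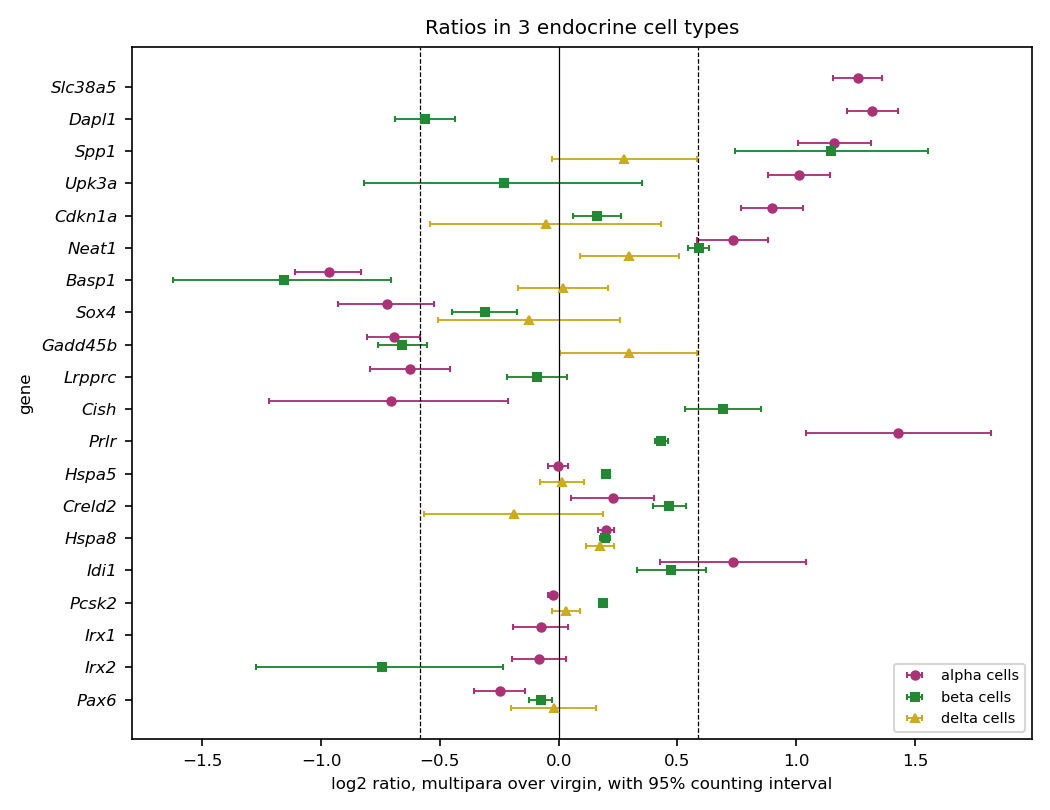
Log2 ratio of multipara over virgin (x axis) with its 95% counting interval for 20 genes (y axis) in alpha (circles), beta (squares) and delta cells (triangles), where a cell type had at least 100 UMIs of the gene. Dashed lines mark 1.5-fold. Dapl1 and Cdkn1a lie past 1.5-fold in alpha cells only among the cell types plotted for them, while Neat1 and Gadd45b lie on the same side in alpha and beta cells. Slc38a5 and Upk3a also lie past 1.5-fold in alpha cells. Slc38a5 had under 100 UMIs in beta and in delta cells, so no other cell type is plotted for it.

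The genes that process and store glucagon were alike in both libraries. Of 14 processing and granule genes, 13 had at least 100 UMIs, 0 were past 1.5-fold, and their median log2 ratio was −0.03. Pcsk2, the convertase that releases glucagon, was at 4631 and 4548 CPM (log2 ratio −0.03). Pcsk1, the convertase that yields GLP-1 in gut cells, had 54 and 41 UMIs in all alpha cells (5.25 and 6.30 CPM) and was at 381 and 410 CPM in beta cells. The granins Chga (12656 and 11164 CPM), Chgb (996 and 894 CPM) and Pcsk1n (5654 and 4932 CPM) were slightly lower and Scg3 (940 and 1066 CPM) slightly higher in the multipara library. The zinc transporter Slc30a8 was at 833 and 769 CPM. Among 16 exocytosis genes measured, 0 were past 1.5-fold, 8 were higher and 8 lower, and the median log2 ratio was 0.01.

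Most identity factors were within 1.5-fold. Of 18 islet transcription factors, 17 had 100 UMIs. Beside 2.75% of all genes, 1 of these was past 1.5-fold. This was Pou3f4, a POU factor of alpha cells, with 94 and 35 UMIs (9.13 and 5.38 CPM, log2 ratio −0.76, −1.37 to −0.19). Irx1 had a log2 ratio of −0.07 and Irx2 of −0.08, each with an interval that included 0. Pax6, which activates the glucagon gene, was at 201 and 169 CPM (−0.25) and Etv1 at 365 and 433 CPM (0.25). The median of the 17 was −0.08.

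Receptors were mostly lower or near the median. Of 30 receptor genes, 17 had at least 100 UMIs, with 1 past 1.5-fold higher, 3 past it lower and a median log2 ratio of −0.14. Of these 17, 14 were below 0. Over all genes 42.5% lay above 0, 1.03% were past 1.5-fold higher and 1.71% past it lower, and the median was −0.03. The fatty acid receptor Ffar1 was at 24.0 and 14.5 CPM (log2 ratio −0.73, −1.09 to −0.38). The somatostatin receptor Sstr2, through which delta cells inhibit glucagon release, was at 26.4 and 16.8 CPM (−0.66, −0.99 to −0.33) and at 0.221 and 0.0512 CPM in beta cells. The adrenergic receptor Adrb1 was at 21.3 and 13.7 CPM (−0.64, −1.01 to −0.27). The insulin receptor Insr was at 21.8 and 16.6 CPM (−0.39) and Igf1r at 30.8 and 22.8 CPM (−0.44), while Igf1r in beta cells had a log2 ratio of 0.51. The vasopressin receptor Avpr1b, another gene found in alpha cells and near 0 in beta cells, was at 31.4 and 25.2 CPM (−0.32). The incretin receptor Gipr was at 15.5 and 18.0 CPM. Glp1r had 1 and 2 UMIs and Gcgr 13 and 2 UMIs over all alpha cells.

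The receptor gene past 1.5-fold higher was Prlr, with 90 and 153 UMIs (8.74 and 23.5 CPM, log2 ratio 1.43). In alpha cells this was 0.888% and 1.77% of the beta cell level, and in hormone-low barcodes 2.07% and 1.78%. The alpha level was thus no higher than that of hormone-low barcodes. How far it is free RNA was not tested, and it is not read as expression.

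Amino acid transporters other than Slc38a5 did not share its ratio. Of 21 genes, 13 had at least 100 UMIs, 1 was past 1.5-fold and 9 were below 0. Slc7a2, a transporter of arginine and lysine, was at 390 and 304 CPM (log2 ratio −0.36) and Slc38a2 at 113 and 95.5 CPM (−0.24). Among 22 ion channel genes measured, 18 were below 0 and 1, the sodium channel subunit Scn3b (9.23 and 6.15 CPM, −0.59), was past 1.5-fold. The calcium channel subunit Cacna2d1 was at 93.7 and 72.7 CPM (−0.36). Over all genes 42.5% lay above 0, 1.03% were past 1.5-fold higher and 1.71% past it lower.

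Genes of the endoplasmic reticulum (ER), where secreted proteins are folded, were for the most part slightly higher in the multipara library. Of 36 ER folding and stress genes measured, 28 were higher in the multipara library, 0 were past 1.5-fold, 18 had an interval above 0 and 0 had one below it. Their median log2 ratio was 0.11, against −0.03 over all genes, where 42.5% were higher, 7.54% had an interval above 0 and 11.1% had one below it. Manf, a secreted ER stress protein, was at 486 and 605 CPM (0.32), Herpud1, which acts in ER-associated degradation, at 328 and 395 CPM (0.27), and the disulfide isomerase Pdia6 at 362 and 435 CPM (0.27). The main chaperone Hspa5 had a log2 ratio of −0.00. In beta cells the median of the same list was 0.23.

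The study chose 9 stress genes from these libraries for beta cells. In alpha cells 8 were measured, of which 7 were higher and 0 were past 1.5-fold, with a median log2 ratio of 0.18. A list chosen on these samples gives no independent evidence of a direction, and the choice in beta cells itself favours larger ratios there, so the medians of the 2 cell types are not compared. Sdf2l1 was at 82.0 and 121 CPM (0.57), Atf5 at 14.3 and 21.2 CPM (0.57) and Fkbp11 at 26.9 and 39.4 CPM (0.55). Atf3, a stress-induced transcription factor, was at 2191 and 2272 CPM in alpha cells (0.05) and at 404 and 588 CPM in beta cells (0.54). Nupr1, with 32 and 49 UMIs, was at 1.52% and 1.25% of its beta cell level in alpha cells, where Ins2 was at 0.643% and 1.07%. Whether these Nupr1 UMIs are free RNA was not tested. Among 22 targets of ATF4, the factor of the integrated stress response, 0 were past 1.5-fold and the median was 0.02.

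Cholesterol synthesis genes share control by the factor SREBP2. Of 21 measured, 18 were higher in the multipara library, where 42.5% of all genes were. Among them 10 had an interval above 0 and 0 had one below it, where 7.54% and 11.1% of all genes did. Past 1.5-fold was 1 gene (1.03% of all genes), and the median log2 ratio was 0.28. The isomerase Idi1 was at 16.9 and 28.1 CPM (0.74, 0.43 to 1.04), the synthase Hmgcs1 at 56.3 and 83.2 CPM (0.56), the feedback regulator Insig1 at 32.4 and 47.2 CPM (0.54) and Stard4 at 9.62 and 14.3 CPM (0.57). The median in beta cells was 0.29 and in delta cells 0.21.

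Nuclear genes of oxidative phosphorylation also lay slightly above the median of all genes. Of 89 measured, 72 were higher, 39 had an interval above 0 and 4 one below it, beside the same shares of all genes (42.5%, 7.54% and 11.1%), and 0 were past 1.5-fold. Their median log2 ratio was 0.08, and 0.07 in beta cells. Glycolysis genes had a median of 0.02, mitochondrially encoded genes of −0.03 and cytosolic ribosomal protein genes of −0.02, with 0 genes past 1.5-fold in each. Heat shock genes had a median of 0.04 and immediate early genes of 0.03, with Gadd45b and Ier5 (53.5 and 34.9 CPM, −0.62) past 1.5-fold lower. Of 25 antigen presentation and interferon genes, 18 were below 0, 7 had an interval below 0 and 3 one above it, and the median was −0.14. The gene past 1.5-fold was Rsad2 (6.90 and 11.4 CPM, 0.72). Of all genes 1.03% were past 1.5-fold higher and 1.71% lower.

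Genes known from the beta cell response to pregnancy were few in alpha cells. Of 11 on the list, 5 had at least 100 UMIs. Tph1, the enzyme of serotonin synthesis in pregnant islets, had 0 UMIs in both libraries, Lrrc55 had 0 and 2, Rerg 2 and 1, and Matn2 12 and 20. Cish, a feedback target of prolactin signalling, was at 12.05 and 7.38 CPM in alpha cells (log2 ratio −0.71, −1.22 to −0.22) and at 24.0 and 38.8 CPM in beta cells (0.69). Of the 15 genes that led the beta cell difference, 12 were measured in alpha cells, with 0 past 1.5-fold higher and 1, the defensin Defb1 (39.3 and 25.5 CPM, −0.62), past it lower. The same shares of all genes were 1.03% and 1.71%. Igfbp7 was lower in both cell types (−0.56 in alpha and −0.64 in beta cells). This list and the stress list were chosen on these libraries.

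Cells with transcripts of several proliferation genes were rare in both libraries. At least 3 of 14 such genes were found in 1 of 1030 virgin alpha cells (0.0971%, 0.00246 to 0.540) and in 6 of 634 multipara alpha cells (0.946%, 0.348 to 2.05). Beta cells had 5 of 1819 and 2 of 1623 such cells, and delta and PP cells 0. The 6 multipara cells had 15884 to 30835 UMIs, 18.4 to 39.3% Gcg and 0.571 to 1.49% insulin, and Scrublet marked 0 of them. They held 93.9% of the UMIs of these 14 genes in multipara alpha cells, and the 1 virgin cell held 81.1%. The count of 7 cells in all sets the precision.

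The cell cycle list was led by those few cells. Of 17 genes measured, 5 were past 1.5-fold higher and 0 lower, with a median log2 ratio of 0.19. By the same rule 1.03% of all genes were higher and 1.71% lower. Without the 7 cells the median was 0.03 and 3 of 17 were past it, among them Cdkn1a (0.89) and the replication helicase subunit Mcm6 (0.70, 66 and 67 UMIs) and Ube2c with 2 UMIs in each library. Stmn1, a microtubule regulator, went from 1.49 to −0.32 without them, with 52 virgin and 26 multipara UMIs left. Ccnd2, the cyclin D2 gene, had 12476 and 9536 UMIs without those cells (0.29), and Cdkn1b, another kinase inhibitor, was at −0.29 with them and −0.30 without.

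Beyond Pyy, the spread among alpha cells was alike in the 2 libraries. For the 3045 genes that reached 0.2 UMI per thinned cell on average in both, the median ratio of variance to mean was 1.04 in each library, near the value of 1 that counting alone gives, and 45 of the 50 most variable genes were shared. The leading genes were Hbb-bs (458 and 707), Pyy (236 and 184), Apoe (92.2 and 164), Ttr (65.3 and 61.4), Malat1 (25.2 and 26.1), Gnas, the stimulatory G protein gene (7.06 and 6.88), and the metallothionein Mt1 (6.16 and 6.08), beside the gate genes Sst, Ppy and Gcg. For Apoe, 51.3% of virgin and 66.8% of multipara UMIs came from 1 cell.

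Markers of other cell types were present at low levels. Summed over each list, endothelial markers were at 32.4 and 32.0 CPM in alpha cells against 4792 and 8365 CPM in hormone-low barcodes, with 0 of 7 genes at 0. Macrophage markers were at 111 and 143 CPM (0 of 8 at 0), of which C1qa, a gene also present in the other endocrine cells, gave 92.3 and 112 CPM. Mesenchymal markers were at 50.1 and 15.4 CPM (0 and 3 of 6 at 0), and 1 virgin cell held 95.8% of the UMIs of Dcn. T cell markers were at 4.08 and 0.769 CPM (0 and 3 of 4 at 0), B cell markers at 18.9 and 3.54 CPM (0 and 2 of 4) and acinar markers at 3.21 and 4.15 CPM (0 and 1 of 6). The part of these cells in the ratios above was not tested. For Slc38a5, Dapl1, Upk3a, Spp1 and Cdkn1a, leaving out the 1% of cells with most UMIs of the gene gave log2 ratios of 1.26, 1.40, 1.11, 1.22 and 0.99.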

How the data were processed

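Single-cell libraries (10x Chromium 3′ chemistry) of 1 virgin and 1 multipara islet sample were used. The values used were the unnormalised UMI counts of each gene in each barcode that the authors deposited. Cell Ranger 3.1.0, Seurat 3.0 and the build GRCm38 are named for them in the submitters' processing notes. The files also hold barcodes that the study's filter removes.

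The cell filter asked for over 200 genes, under 6000 genes, under 60000 UMIs and a mitochondrial share under 10%. Beta, delta and PP cells were gated like alpha cells on their own hormone, and hormone-low barcodes had all 4 hormones under 5%. Counts were summed per library and cell type. Shares have exact Clopper-Pearson and log2 ratios exact conditional binomial 95% intervals, which assume independent molecules. Genes with at least 100 UMIs over both libraries were compared, and "past 1.5-fold" is a size, not a test. Ratios follow the summed UMIs, 10974899 in the smaller library. For shares of cells, UMIs were drawn without replacement to 7500 a cell, the largest multiple of 500 below which fewer than 10% of virgin alpha cells lay.

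Named genes were markers, the 10 highest and 10 lowest ratios at 50 CPM or more, the 15 highest over beta and delta cells, the 10 most variable, all members of 6 lists, and up to 4 members farthest from 0 in the others. Members, lists and rules were chosen with earlier results of these data known. The haemoglobin genes fall under the same rule. Gene locations came from GENCODE M21, which held 30934 of 31053 identifiers (99.6%), and promoters from RefSeq. Aldoa, whose symbol 2 rows share, was left out. Some genes that the rule names are not reported here. Of the other settings tried, 14 were listed at the start, and 2 and the Pyy limit were chosen after seeing the data. Python 3.11.15, numpy 2.4.6, scipy 1.17.1, pandas 2.3.3, scanpy 1.11.5 and edgeR 4.0.16 (TMM scaling only) were used. The interval code was tested on simulated counts and the thinning code on the virgin alpha cells.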

Additional observations from a re-analysis of the deposited data

Results flagged for a closer look

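The 34 named genes past 1.5-fold in alpha cells were looked up in beta and delta cells. Of these, 5 had counting intervals on opposite sides of 0 in the 2 cell types. The same share over all genes was not counted, so the 5 are listed as cases only. In alpha cells 7.54% of all genes had an interval above 0 and 11.1% had one below it. With 1 library per group the differences were not tested. Dapl1 had a log2 ratio of 1.32 in alpha and −0.56 in beta cells. Cish, the feedback target of prolactin signalling, had −0.71 in alpha and 0.69 in beta cells, from 124 and 48 alpha UMIs. Gadd45b had −0.69 in alpha and 0.29 in delta cells. Defb1 had −0.62 in alpha and 0.26 in delta cells. Stmn1 had 1.49 in alpha and −1.18 in beta cells, and 52.3% of its virgin and 29.0% of its multipara alpha UMIs came from 1 cell. Without the 7 alpha cells with several proliferation transcripts the alpha value of Stmn1 was −0.32, from 52 virgin and 26 multipara UMIs. This is under the minimum of 100 UMIs, so its side of 0 is not read.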

How the results depend on the processing

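Of the named ratios past 1.5-fold, 1 turned its direction under an alternative that gave a value, that of Stmn1. It was −0.32 without the 7 cells with several proliferation transcripts (52 virgin and 26 multipara UMIs), against 1.49. Of the 27 summary values that moved, the share of alpha cells went from 23.5% to 19.8% (virgin) and from 18.8% to 13.3% (multipara) with all barcodes, to 26.1% and 20.8% with mitochondrial share under 5%, to 22.1% and 16.4% with other hormones under 2%, and to 26.8% and 21.6% with at least 5000 UMIs. With Gcg of at least 20% the virgin share was 22.1%. The virgin share was the higher one in each case. Genes past 1.5-fold higher and lower numbered 655 and 1012 at 10 UMIs or more, 15 and 16 at 500 UMIs or more, and 29 and 24 past 2-fold, against 98 and 163, so these counts rest on the UMI minimum. Thinning left 144 genes higher in alpha than in beta and delta cells, against 223. Counted on all UMIs, the median log2 ratio of ER genes was 0.0504, of oxidative phosphorylation genes 0.0152 and of ribosomal protein genes −0.0824, where the median of all genes was −0.09. Oxidative phosphorylation genes had 0.119 with each cell weighted equally. Ribosomal protein genes had 0.0132 with TMM scaling and 0.0120 with the median of gene ratios set to 1, and mitochondrially encoded genes 0.00179, 0.000665 and, with all barcodes, 0.0118. The cell cycle list had 0.78 at 10 UMIs or more and −0.0569 at 500 UMIs or more.

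The ER, cholesterol synthesis and study stress lists lay above 0 in all 13 alternatives (0.05 to 0.15, 0.22 to 0.32 and 0.11 to 0.22). Slc38a5 ranged from 1.18 to 1.34, Dapl1 from 1.26 to 1.40, Spp1 from 1.10 to 1.22, Upk3a from 0.95 to 1.19, Cdkn1a from 0.83 to 0.99 and Basp1 from −1.03 to −0.93. Of 34 named genes past 1.5-fold, 13 were under it in at least 1 alternative, among them Stmn1, Fxyd6 (down to −0.48), Tmsb15b2 (−0.55), Scn3b (−0.30), Defb1 (−0.37), Sstr2 (−0.49), Sox4 (−0.56), Adrb1 (−0.47), Mcm6 (0.43) and Rsad2 (0.42), and Lrpprc and Ier5 (both −0.58) by a small margin. The 7 cells with several proliferation transcripts were left out, and the 1% of cells with most UMIs of a gene, in alternatives chosen after seeing the data. The first gave a cell cycle median of 0.03. The second gave no value for Hbb-bt, Hba-a1 and Hba-a2, which had 0 virgin UMIs left, and 4.17 for Hbb-bs. No paired analysis was possible because each group has 1 library. Leaving out a replicate was not possible either. One library per group limits every comparison between groups, and genes of few UMIs such as Cish are further limited by depth. How far the Prlr UMIs are free RNA was not tested.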
